A study of Xenopus laevis with 4 samples.

Results

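Rab GTPases are small membrane-bound switches that give each compartment of the secretory and endocytic routes its identity. Exchange factors (GEFs), among them the DENN domain proteins, load them with GTP, GTPase-activating proteins (GAPs) with a TBC domain return them to the GDP-bound state, and GDP dissociation inhibitors (GDIs) carry the inactive form through the cytosol. In the gastrula these routes move cadherins, integrins and signaling receptors to and from the cell surface. Transcripts of this family were followed in *Xenopus laevis* embryos depleted of the TATA-binding protein TBP and its relatives TBP2 and TLF. Members were chosen by symbol alone. They are the entries whose symbol, without the ending for the L or S homeolog, begins with rab and a digit, or with a stem of the regulators such as rabgap, rabep, rabif, rabgef, tbc1d, dennd and gdi2. This gave 129 of the 45098 entries in the table, under 78 symbols, with 67 L entries, 58 S entries and 4 with neither ending. A further 20685 entries of the table carry only a gene model number, so family members without a symbol are not analysed here. This holds for the symbols rab5a, rab5c, rab8a, rab10 and rab40b, which matched no entry.

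RNA was measured in 4 samples at stage 10.5, the early gastrula, and each sample held 10 whole embryos. Triple-knockdown (TKD) embryos, 2 samples, were injected at the 1-cell stage with antisense oligonucleotides against *tbp*, *tbp2* and *tlf*, given in the labels as 0.8 ng of the mixture, whereas the study's methods list a separate amount for each oligonucleotide. Control embryos, 2 samples, received water at the same stage and no oligonucleotide, so the response to the targets and that to injected DNA cannot be told apart. The study reports that TKD embryos arrested and did not enter gastrulation, with no sign of involuting cells. Loss of the targets and this difference in developmental progress cannot be told apart either. No source says whether the embryos of a group derived from different clutches, and the P-values therefore cover only the spread between these samples. The oligonucleotides are shown because they define the perturbation, with capitals for the bases joined by unmodified linkages, the stretch open to RNase H.
TBPAS3: tgcatTTCGCGCTctaag
TBP2-AS167: tcatcGTATGGAgtcat
TLF-AS93: atatcCAGTGCCacatc

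The table gives 1 mean of normalized counts per group. The means are sums of whole reads of 2 libraries divided by their size factors, and from these steps the reads of each library were recovered for all 129 members. Recovered reads summed to 2523060 and 1414476 for TKD and to 5222085 and 3436848 for control embryos, and the libraries are called deeper and shallower by these totals. Values are given below with the deeper library of a group first. Values below are recovered reads divided by the size factor ("normalized counts"), and fold changes are log2 of TKD over control with standard errors (SE) from limma-voom, called at a Benjamini-Hochberg adjusted P-value under 0.1 over the 17026 genes that reached 10 reads in 2 or more libraries. Reads were not divided by gene length, so levels of different genes are not compared. Of the targets, tbp.S had 32.9 and 19.8 normalized counts in TKD and 57.8 and 87.7 in control embryos (log2 fold change −1.32, adjusted P = 0.0943). The entry tbp.L was not called (−0.51, adjusted P = 0.638). The *tbp2* entry, tbpl2.L, was too low for the test (4.7 and 1.65 against 6.59 and 3.13), and *tlf* was not matched by symbol. In TKD embryos the study itself saw loss of TBP protein by western blot and of *tbp2* and *tlf* transcripts by RT-qPCR. For specificity it refers to earlier experiments with control oligonucleotides and rescue. Across genes, the deeper TKD and the deeper control library deviated from their group means in opposite senses (correlation −0.495 over 17026 genes, which are not independent replicates). All mesoderm, endoderm and ectoderm marker entries had reads in every library. Summed mesoderm markers (10 entries) stood at 2226.6 and 1913.2 normalized counts in TKD against 1777.4 and 1846.9 in control embryos. Of these entries 3 were called lower and 5 higher. Summed endoderm markers (10 entries) stood at 6839.8 and 5328.0 against 3705.8 and 5295.0, with 1 entry called lower and 3 higher. Summed ectoderm markers (6 entries, 3 of 8 symbols matched) stood at 1747.1 and 1607.3 normalized counts in TKD against 4811.3 and 4649.8 in control embryos, and 5 of the 6 were called lower. Summed maternal transcripts (11 entries) stood at 7178.3 and 6745.1 against 2917.8 and 3101.2, and 9 of the 10 tested were called higher. In whole embryos fewer cells of a type and less RNA per cell cannot be told apart, and the part of these shifts in the results below was not tested.

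Rab family transcripts moved in both directions. Of the 91 members tested, 8 were lower and 9 were higher in TKD embryos, and 74 did not pass. These 17 make up 18.7% of the members tested, whereas 24.6% of all genes tested were called (14.3% lower and 10.3% higher), so the share of called members lay below that background. Before adjustment, 23 members had P-values under 0.05, beside 31.9% of all genes. In 26 members both TKD values lay below both control values and in 33 above, beside 30.7% and 29.9% of all genes tested. The median log2 fold change of the tested members was 0.11, against 0.04 over all genes. The authors' group means were also compared as log2 ratios of TKD over control (pseudocount 1). Over the 119 members above 0 in either group the median ratio was 0.04, with 57 below and 62 above 0. Over all 26705 genes above 0 in either group it was −0.016, with 13517 below and 13188 above 0. The 74 members that did not pass ranged from −1.63 to 1.08. Of the remaining 38 members, 10 had no read in any library and 28 were too low for the test, with at most 36 reads in a library. All members together took 0.47% and 0.523% of the recovered reads in TKD and 0.428% and 0.417% in control embryos. Recovered reads leave out the genes not solved in both groups, whose part of the signal need not be equal between groups. Several calls in both directions were lost when a library was left out, as given with the members below. Without a control library tbc1d13.1, dennd2a.L and rab3d.L could not be tested, so numbers of calls are not compared between these fits.

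**Figure D1:**
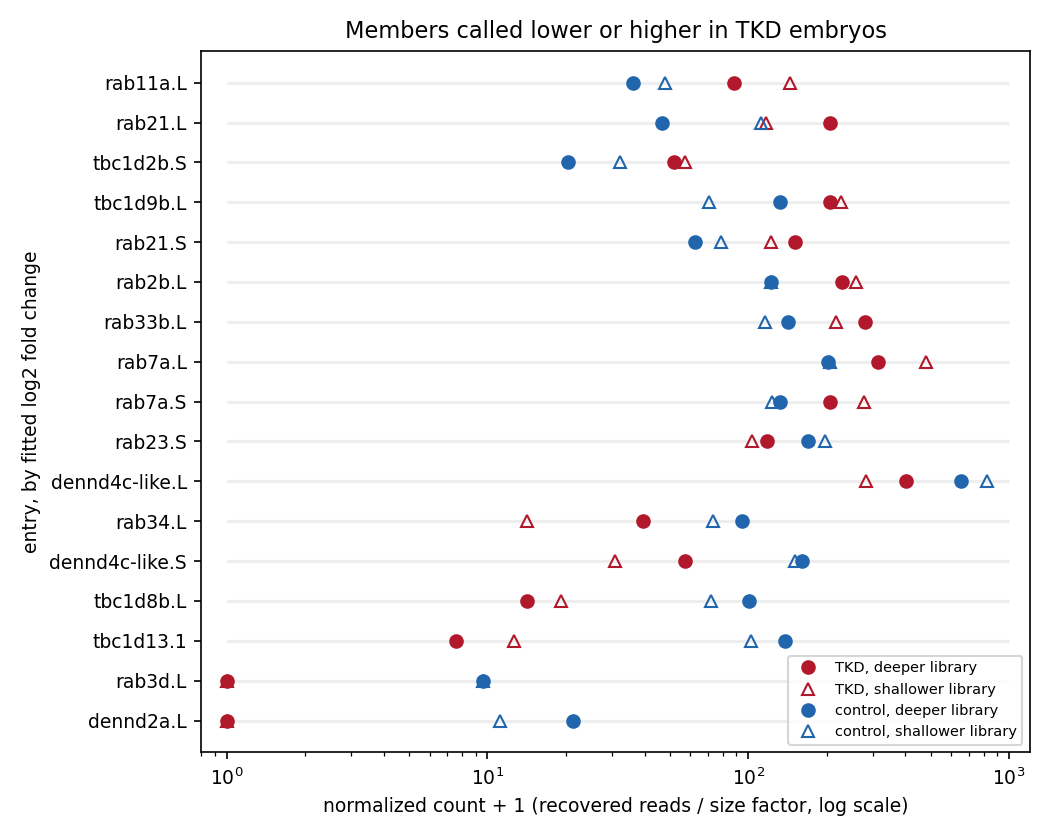
Normalized counts plus 1 (recovered reads divided by the size factor, log scale) of the 17 called members in each of the 4 libraries, with TKD in red, control in blue, circles for the deeper and triangles for the shallower library of a group. From dennd2a.L at the bottom to rab23.S the TKD points lie below both control points, and from rab7a.S to rab11a.L they lie above.

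The decreased entries were 3 for Rab proteins, 3 for DENN domain exchange factors and 2 for TBC domain proteins. Of these, tbc1d13.1, dennd2a.L and rab3d.L passed the filter on low reads through the control libraries alone, so that a lower call was the only call possible for them. The TBC domain gene tbc1d13.1 had 6.58 and 11.6 normalized counts in TKD against 137.4 and 101.8 in control embryos. TBC1D13 acts on Rab35 in mammalian cells. Its TKD level was 7.59% of control (log2 fold change −3.78, SE 0.66, adjusted P = 0.0106), with 7 reads in each TKD library. The call held under each of the 12 other settings in which the entry could be tested. These settings add no support, because a lower call was the only one possible. With a control library left out the entry could not be tested. The S entry, tbc1d13.S, had 3 and 0 reads in TKD and 36 and 7 in control libraries and was too low for the test. A second TBC domain gene, tbc1d8b.L, had 13.2 and 18.2 normalized counts in TKD against 99.4 and 71.2 in control embryos (log2 fold change −2.49, SE 0.52, adjusted P = 0.0198). The highest TKD value was below the lowest control value, and the call held under each of 13 settings. The transcript rab35.L, which encodes the Rab that TBC1D13 acts on, had 119.4 and 210.0 normalized counts in TKD against 126.8 and 104.9 in control embryos. Its groups overlapped and it did not pass (log2 fold change 0.38, adjusted P = 0.434).

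Of 14 entries for DENN domain exchange factors 11 were tested, 3 were lower, 0 were higher and 8 were not called (27.3% called, beside 24.6% of all genes, of which 10.3% were higher). The median log2 fold change of the 11 was −0.21, and 6 of them had both TKD values below control, beside 30.7% of all genes. These counts and the median include dennd2a.L, which passed the filter through the control libraries alone and could only be called lower. DENN domain entries here are those with a dennd symbol, so other genes with this domain are not counted among them. DENND4C activates Rab10 in mammalian cells, and both homeologs of its gene decreased. The entry dennd4c-like.S had 56.4 and 29.8 normalized counts in TKD against 160.2 and 149.5 in control embryos (log2 fold change −1.79, SE 0.36, adjusted P = 0.0169). The homeolog dennd4c-like.L had 402.5 and 282.8 against 654.2 and 822.1 (log2 fold change −1.09, SE 0.24, adjusted P = 0.0232). Neither pair of groups overlapped, and both calls held under each of the 13 settings. The transcript dennd2a.L, whose mammalian product activates Rab9, had no read in either TKD library and 40 and 13 reads in the control libraries. Taken against the limit that 0 reads allow (3 reads over both TKD libraries, or 1.80 normalized counts), it was at least 8.47-fold lower (adjusted P = 0.0277). It and rab3d.L lie under the level required of named genes and were chosen after their values were seen. Its homeolog dennd2a.S had 15 reads in the deeper control library and 0 in the other three. The other dennd entries tested ranged from −0.59 for dennd2c.L to 0.55 for dennd1a.S. Among them were dennd6a.1, with 248.2 and 279.5 against 281.4 and 328.0 normalized counts, and dennd5a.L, with 98.7 and 84.3 against 109.0 and 93.2.

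Among the Rab GTPases themselves, transcripts of 3 entries fell and those of 7 rose, of 34 tested (29.4% called, beside 24.6% of all genes). Their median log2 fold change was 0.46, and both TKD values lay above control in 17 and below in 5, beside 29.9% and 30.7% of all genes. The decreased entries were rab3d.L, rab34.L and rab23.S. Of these, rab3d.L passed the filter through the control libraries alone and could only be called lower. RAB3D acts in regulated secretion. Its L entry had 0 reads in TKD against 8.62 and 8.61 normalized counts in control embryos, which is at least 4.79-fold lower against the limit of 3 reads (adjusted P = 0.0401). It rests on 17 and 11 control reads, and the call was lost without the precision weights (adjusted P = 0.114). Of the 6 entries for Rabs of regulated secretion no other could be tested, and rab3d.1 had 33 reads in the deeper control library and 0 elsewhere. RAB34, listed with the Golgi Rabs, and RAB23 both act at the primary cilium and in Hedgehog signaling of mammals. The entry rab34.L had 38.6 and 13.2 normalized counts in TKD against 93.8 and 72 in control embryos (log2 fold change −1.64, SE 0.51, adjusted P = 0.0662). Without the shallower TKD library, the lower of the TKD values, it was −1.11 with an adjusted P of 0.195. The entry rab23.S had 116.6 and 102.5 against 168.9 and 196.5 (log2 fold change −0.70, SE 0.25, adjusted P = 0.0925). The groups did not overlap, but the call was lost without any 1 of the 4 libraries, with adjusted P-values of 0.247 and 0.272 when a TKD library was left out and of 0.112 and 0.223 when a control library was (deeper first). The other tested entry of the cilium list, rab28.L, overlapped between groups (45.1 and 24.8 against 17.2 and 32.1).

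Of the 8 entries for early endosome Rabs, all tested, 2 rose, 0 fell and 6 did not pass, and in 7 both TKD values exceeded control. The share called, 25%, was close to the 24.6% of all genes, of which 29.9% had both TKD values above control. Their median log2 fold change was 0.80. The 2 are the homeologs of rab21, whose product acts in early endosomes and integrin traffic. The entry rab21.S had 150.4 and 120.7 normalized counts in TKD against 61.4 and 77.5 in control embryos (log2 fold change 1.02, SE 0.28, adjusted P = 0.0452). For rab21.L the values were 205.0 and 115.8 against 45.6 and 111.2 (log2 fold change 1.26, SE 0.45, adjusted P = 0.0950). For rab21.L the values of the shallower libraries were nearly equal. Neither call held without the deeper TKD library (log2 fold change 0.83 for rab21.S and 0.79 for rab21.L) or without the deeper control library (0.82 and 0.53). Both were also lost with thinned libraries (adjusted P = 0.121 for rab21.S and 0.117 for rab21.L). The call of rab21.L fell outside the threshold with medians of ratios (adjusted P = 0.103), trimmed means of M-values (0.105) and unweighted reads (0.161) too. The remaining early endosome entries did not pass. In rab4b.L, rab4b.S, rab14.L, rab14.S and rab5b.S both TKD values exceeded control, with log2 fold changes between 0.36 and 1.08. RAB4 and RAB14 act in recycling from early endosomes. The entry rab14.S had 398.7 and 469.6 normalized counts in TKD against 340.3 and 331.2 in control embryos (adjusted P = 0.251). The entry rab5b.L was level, with 122.2 and 119.1 against 128.8 and 112.7 (log2 fold change −0.00, SE 0.24).

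Of the late endosome and lysosome Rabs, 5 of 14 entries were tested, 2 rose and 3 did not pass. The share called, 40%, rests on only 5 entries and stands beside 24.6% of all genes. The 2 are the homeologs of rab7a, which directs late endosomes to lysosomes. The entry rab7a.L had 312.2 and 477.9 normalized counts in TKD against 200.8 and 205.1 in control embryos (log2 fold change 0.90, SE 0.25, adjusted P = 0.0467). The entry rab7a.S had 204.0 and 276.2 against 130.8 and 122.1 (log2 fold change 0.87, SE 0.24, adjusted P = 0.0473). In both homeologs the control libraries lay close together and the shallower TKD library was the highest. Without that library the values were 0.62 for rab7a.L (adjusted P = 0.182) and 0.68 for rab7a.S (adjusted P = 0.188). The other 3 tested, rab12.S, rab24.L and rab32.S, overlapped between groups.

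Rabs of recycling endosomes and exocytosis had 6 of 11 entries tested, of which 1 rose and 0 fell (16.7% called, beside 24.6% of all genes). The transcript rab11a.L, for the Rab of the recycling endosome, had 87.4 and 143.9 normalized counts in TKD against 35.0 and 47.0 in control embryos. The TKD mean was 282% of control, the largest fitted increase among the called members (log2 fold change 1.43, SE 0.35, adjusted P = 0.0339). Without the shallower TKD library it was 1.14 with an adjusted P of 0.122. Its homeolog rab11a.S had 86.5 and 92.6 against 69.0 and 45.4 and did not pass (log2 fold change 0.63, adjusted P = 0.218). The related rab11b.1.L had 414.7 and 719.3 normalized counts in TKD against 349.4 and 308.5 in control embryos. It did not pass (log2 fold change 0.71, adjusted P = 0.118), although it passed without the deeper TKD library (1.13, adjusted P = 0.0320), without the deeper control library (0.81, adjusted P = 0.0652) and with library totals (0.88, adjusted P = 0.0624). Without the shallower TKD library it was 0.33 (adjusted P = 0.459). Its homeolog rab11b.1.S was close to control, with 431.6 and 436.6 against 402.1 and 380.5. The entry rab11b.2.L spread widely within the TKD group, at 12.2 and 48.0 normalized counts. It did not pass (adjusted P = 0.508) but did without the deeper TKD library (log2 fold change 2.15, adjusted P = 0.0916), whereas it was 0.19 without the shallower TKD (adjusted P = 0.909) and 0.22 without the shallower control library (0.862). The epithelial Rab gene rab25 was near the floor, with 2 and 1 reads of rab25.L in TKD and 18 and 4 in control libraries, and 0 and 1 against 18 and 0 reads of rab25.S.

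Rabs of the endoplasmic reticulum and Golgi had 12 of 22 entries tested, with 2 higher and, beside rab34.L, none lower. The share called, 25%, was close to the 24.6% of all genes. The transcript rab2b.L, whose product acts in traffic at the Golgi, had 228.5 and 258.0 normalized counts in TKD against 121.7 and 121.4 in control embryos. The values within each group lay close together (log2 fold change 0.99, SE 0.22, adjusted P = 0.0240). The call held without each library in turn (0.91 to 1.09) and was lost with a term that pairs the deeper libraries (adjusted P = 0.106). The transcript rab33b.L, for a Golgi Rab that also takes part in autophagy, had 278.3 and 215.0 against 141.5 and 115.1 (log2 fold change 0.95, SE 0.24, adjusted P = 0.0381). Without the deeper TKD library it was 0.74 with an adjusted P of 0.216. The S homeologs did not pass, with 153.3 and 195.1 against 145.5 and 130.0 for rab2b.S and 131.6 and 178.6 against 124.2 and 151.9 for rab33b.S, which overlapped. Transcripts of rab1a, needed for transport from the endoplasmic reticulum to the Golgi, were level. The entry rab1a.S had 381.8 and 398.5 against 412.3 and 378.2 (log2 fold change −0.02, SE 0.19), and rab1a.L had 244.5 and 168.7 against 224.6 and 244.3 (−0.16, SE 0.24). Both overlapped between groups, and both values changed sign with library totals. Both entries of rab6a are listed at 0.

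**Figure D2:**
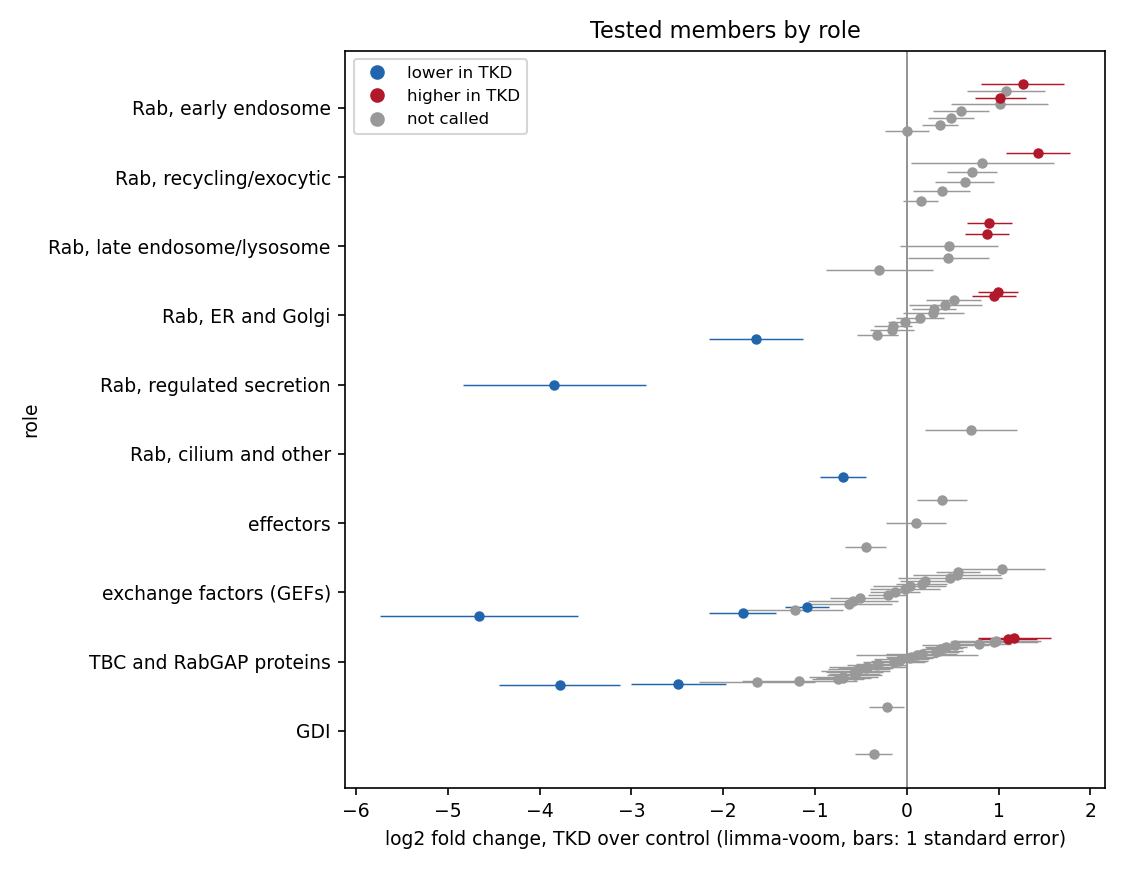
Fitted log2 fold change of TKD over control (horizontal, bars 1 SE) for 90 of the 91 tested members by role (vertical; rabepk-like.L, which has no role in the lists, is left out). Called members are blue (8, lower) or red (9, higher) and the rest grey; the red points lie among Rab GTPases and 2 GAPs, and no exchange factor is red.

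The TBC domain entries as a group were spread around 0. Of 32 tested, 2 fell, 2 rose and 28 did not pass (12.5% called, beside 24.6% of all genes). The median log2 fold change was −0.07. Both TKD values lay below control in 10 entries and above in 11, beside 30.7% and 29.9% of all genes. TBC1D9B acts on Rab11a in mammalian cells. The entry tbc1d9b.L had 204.0 and 224.9 normalized counts in TKD against 131.3 and 69.7 in control embryos (log2 fold change 1.1, SE 0.32, adjusted P = 0.0542). The control values differed from each other by more than the TKD values did. The adjusted P was 0.114 or 0.125 when the deeper or the shallower TKD library was left out, and 0.123 without the shallower control library, whose value was the lowest. The other rising entry, tbc1d2b.S, had 50.8 and 56.2 against 19.3 and 31.3 (log2 fold change 1.17, SE 0.40, adjusted P = 0.0856). The call was lost when either TKD library was left out (adjusted P = 0.215 and 0.220, deeper first) and without the deeper control library (0.407). The TBC domain entry with the highest mean, tbc1d8.S, had 473.9 and 534.1 against 349.9 and 411.0 and did not pass (log2 fold change 0.41, adjusted P = 0.203). The entry tbc1d5.L, for a GAP that acts on Rab7 with the retromer, had 112.8 and 181.9 against 209.4 and 259.9 (log2 fold change −0.75, adjusted P = 0.112). Both rabgap1l entries lay below 0 in the fit and did not pass (−0.43 and −0.69).

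The exchange factors and effectors among the members without a dennd symbol, and gdi2, which encodes a GDI, did not pass. The Rab5 exchange factor rabgef1.L had 237.9 and 201.7 normalized counts in TKD against 133.4 and 173.8 in control embryos (log2 fold change 0.56, adjusted P = 0.153), and rabgef1.S overlapped. Rabaptin-5, encoded by rabep1, binds this factor and Rab5. Its L entry had 95 and 120.7 against 84.2 and 75.9 and its S entry 70.5 and 61.2 against 53.2 and 77.5. The entry rabif.S, for the small protein MSS4, which binds exocytic Rabs, had 16.0 and 19.8 against 33.5 and 55.6 (log2 fold change −1.22, SE 0.53, adjusted P = 0.160). Its groups did not overlap, with few reads (17 and 12 against 66 and 71). The homeologs of rab3gap1, a subunit of a complex that acts on Rab3 and Rab18, had log2 fold changes of 0.20 and 0.16. The Rab11 effector entry rab11fip5.L had 235.1 and 261.3 against 370.2 and 303.8 (log2 fold change −0.45, adjusted P = 0.196). Transcripts of gdi2 were slightly lower in both homeologs, without passing. They were at 443.8 and 444.8 against 543.6 and 490.9 for gdi2.L (log2 fold change −0.22, SE 0.19, adjusted P = 0.465) and at 293.4 and 322.5 against 397.6 and 389.1 for gdi2.S (−0.36, SE 0.20, adjusted P = 0.242).

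**Figure D3:**
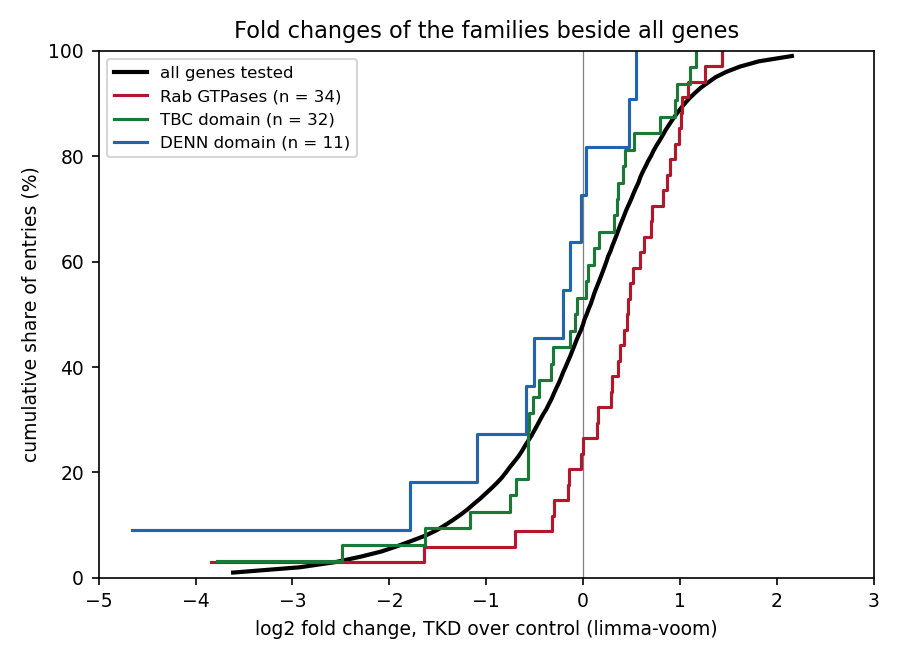
Cumulative share of entries (percent) against log2 fold change of TKD over control for all 17026 genes tested (black, percentiles 1 to 99) and for the 34 Rab GTPases, 32 TBC domain and 11 DENN domain entries tested. The Rab curve runs to the right of all genes over its middle part (median 0.46 against 0.04), the TBC curve follows all genes (−0.07) and the DENN curve runs to the left (−0.21).

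L and S homeologs were both tested for 31 genes of the family. Both lay above 0 in 14 and both below in 7, and the signs were opposite in 10. Both homeologs were called for 3 genes (rab7a, rab21 and dennd4c-like), 1 of the 2 for 4 (rab11a, rab2b, rab33b and tbc1d9b) and neither for 24. The same counts of signs and calls over all homeolog pairs were not taken, so these are not read as particular to the family. A homeolog that misses the threshold is not thereby shown to differ from its partner. The difference between the L and S responses was therefore tested with limma on the log2 difference of L and S in each library. It was tested over 3669 homeolog pairs with a symbol, in which both entries reached 10 reads in 2 or more libraries. This test was added after the data were seen. It called 1 of the 31 pairs, beside 7.47% of all pairs tested, and 6 had an unadjusted P-value under 0.05. The share of all pairs under 0.05 before adjustment was not counted, so these 6 are not read as particular to the family. The called pair is tbc1d9b, where the L entry rose and the S entry had 74.3 and 72.8 normalized counts in TKD against 94.8 and 132.3 in control embryos. The L response exceeded that of S by 1.75 on the log2 scale (SE 0.46, adjusted P = 0.0724). The related gene tbc1d9 differed in the opposite sense, with tbc1d9.L at 10.3 and 11.6 against 30.9 and 18.8 and tbc1d9.S at 29.1 and 62.8 against 22.8 and 16.4, but did not pass (L minus S −2.18, SE 0.72, adjusted P = 0.137). For rab11a, rab2b and rab33b the difference was 0.78, 0.66 and 0.78 (SE 0.50, 0.28 and 0.36) and did not pass (adjusted P = 0.430, 0.227 and 0.278). For rab7a the difference was 0.02 (SE 0.25). How reads that match both homeologs were counted is not stated, so values of near-identical homeologs are uncertain.

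**Figure D4:**
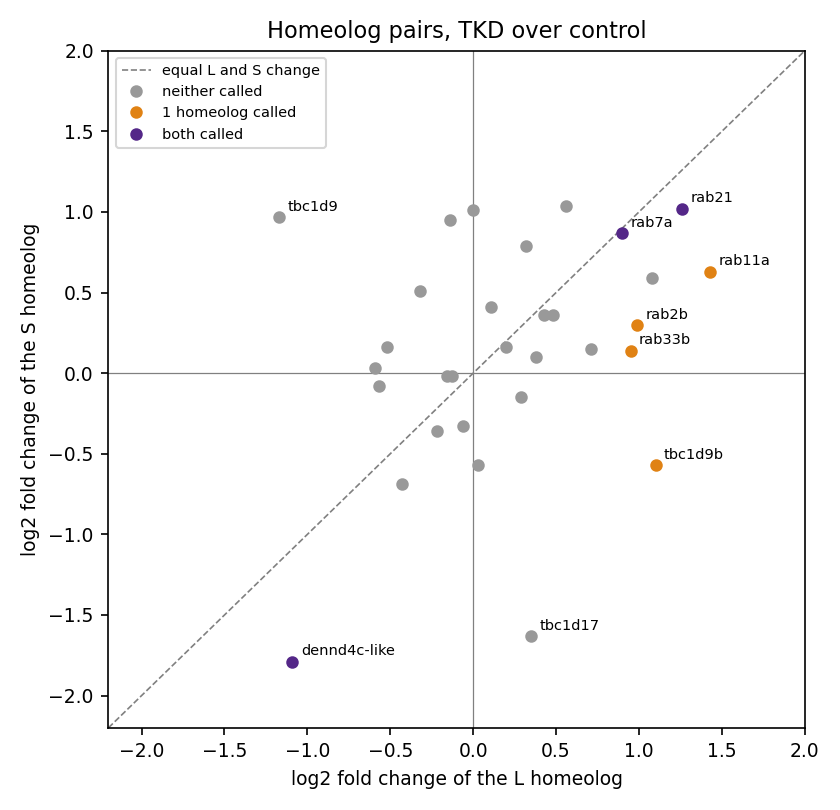
Log2 fold change of the S homeolog (vertical) against that of the L homeolog (horizontal) for the 31 genes with both entries tested, with the dashed line for equal change. Purple points are the 3 genes with both homeologs called, orange the 4 with 1 called; tbc1d9b lies at 1.1 for L and −0.57 for S, far from the line.

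Genes of the wider Rab pathway outside the family names were taken from a list of 117 symbols for prenylation and escort, other exchange factors and GAPs, and effectors. The table matched 64 of them with 108 entries, of which 83 were tested, and 10 were lower, 8 were higher and 65 did not pass (21.7% called, beside 24.6% of all genes). The largest decrease was that of gcc2.S, a golgin that tethers vesicles at the trans-Golgi. It had 44.2 and 54.6 normalized counts in TKD against 358.0 and 433.0 in control embryos (log2 fold change −3.02, SE 0.31, adjusted P = 0.00287). Of the exchange factors of that list 25 were tested, with 3 lower and 3 higher (24% called, close to the 24.6% of all genes). The lower entries were madd.L, for an exchange factor of Rab3 (38.6 and 49.6 against 193.2 and 151.1), sbf1.L (126.0 and 138.9 against 413.8 and 345.3) and sbf1.S (52.7 and 34.7 against 165.8 and 146.4). Among effectors, eea1.L, which tethers early endosomes for Rab5, had 34.8 and 48.0 against 108.0 and 130.0 (log2 fold change −1.56, adjusted P = 0.0232). The retromer subunit entry vps35.S had 202.2 and 229.9 against 528.4 and 490.9 (−1.25, adjusted P = 0.00912), and pik3c3.S, vps8.L, micall2.L and the TBC domain gene tbck.L fell too. The increases included rilp.S, an effector that links Rab7 to dynein, with 120.4 and 99.2 against 25.9 and 47.8 (log2 fold change 1.73, SE 0.36, adjusted P = 0.0198). Both homeologs of sytl4, a Rab27 effector of granule exocytosis, rose (1.23 for sytl4.L and 1.11 for sytl4.S), as did the TRAPP subunit entries trappc1.L, trappc2.L and trappc6a.L (1.04 to 1.20), snx1.L and arl6ip5.S. Of the Arf and Arl entries 23 were tested, with 1 lower and 2 higher (13% called, beside 24.6% of all genes) and a median of 0.01.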

How the data were processed

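Libraries depleted of ribosomal RNA were sequenced with 75-nt reads. Per the submitters' processing notes and the methods, the authors used STAR with 1 mismatch allowed, assembly JGI 9.1 and DESeq. Versions and the read counter were not given in the sources used here. In the deposited table, the authors' signal values are means over a group of counts divided by size factors. Their fold changes, P-values and adjusted P-values were not used. In the table, 1 line was empty.

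Reads per library were recovered as the only whole-number solution for 45094 (TKD) and 45088 (control) of 45098 genes, with size factors of 1.0635 and 0.6047 (TKD) and 1.972 and 1.2772 (control); the solved genes hold 94.64% and 89.23% of the signal. Reads were tested with limma 3.58.1 (voom) in R 4.3.3, with these size factors and no term but the group; the design foresaw this test for a table without counts per library. The steps were tested on simulated data. With an assumed dispersion of 0.05, the test called 24% of 96 genes changed 2-fold and 91.8% of 97 changed 4-fold, so most 2-fold changes were missed. The homeolog test called 70% of 200 pairs given a 4-fold difference. Far fewer genes changed in the simulated data than were called here, so these shares need not hold for the embryos. Which library bears which replicate number is not known.

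Named members were called entries with a mean of at least 20 in either group, up to 12 per direction. To these were added the 6 with the highest means, the entries of 13 fixed symbols, and the homeologs of all of them. Other members whose values are given, rab35.L, rab14.S, tbc1d5.L and rabif.S among them, fall outside this rule. They were picked with the results known. Members, lists and alternatives were chosen with earlier results of these data known. The alternatives were other scalings, filters, thresholds, unweighted and thinned reads, summed homeologs, library pairs and leaving out each library. A few results, 1 symbol of the selection rule included, are not reported here. Protein and promoter sequences of the members were not used here. Figures used Python 3.11.15 and matplotlib 3.10.9.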

Additional observations from a re-analysis of the deposited data

How the results depend on the processing

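Of the 8 lower members, 5 were called lower when libraries were thinned to 1414476 reads. There rab23.S lost the call (adjusted P = 0.234), whereas dennd2a.L and rab3d.L had too few reads left to be tested. The 9 higher members became 15 with library totals. This scaling moved the median log2 fold change of all genes from 0.04 to 0.21. It moved the share of lower calls among all called genes from 58.2% to 41.9%. No paired analysis was possible because the deposited means carry no replicate number; a term for each possible pairing of libraries gave 5 lower and 1 higher (deeper with deeper, where the calls of rab2b.L, rab33b.L, rab3d.L, rab34.L, rab23.S, tbc1d2b.S, tbc1d9b.L and both homeologs of rab7a and rab21 were lost) or 16 lower and 25 higher (deeper with shallower), beside 9.67% and 43.4% of all genes called. Numbers of calls are not compared between the fits that leave out a library. Without a control library 88 members could be tested, against 91 without a TKD library. At an adjusted P-value under 0.05, 6 members were lower and 6 higher, and the share of all genes at this threshold was not counted. Over all genes, lower calls went from 2438 of 17026 tested to 2220 of 14998 with thinned libraries. Higher calls over all genes went from 1749 to 2750 with library totals. These totals are sums of recovered reads and leave out the unsolved genes. The median log2 ratio of the group means was 0.038 over members above 0 and 0.147 over those with a mean of at least 10. Over all genes these medians were −0.016 and 0.059. Without each library the median over members above 0 was −0.088 to 0.115 (an alternative added after the data were seen).

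Leaving out a library in turn changed the sign of 19 tested members, none of them called. Among the named members the sign changed under some setting in rab1a.L (0.02 with library totals, −0.46 to 0.07 without a library), rab1a.S (0.16 with library totals, 0.01 with thinned reads, −0.08 to 0.04 without a library), rab33b.S (−0.04, −0.02 and up to 0.40 without a library) and tbc1d8.L (−0.01 unweighted, −0.61, −0.12 and up to 0.61 without a library). Among the called members, 11 lost the call with the deeper libraries paired, 5 at an adjusted P-value under 0.05 and 4 with thinned libraries. The unweighted fit lost 3 calls and the fit without a filter 2. Library totals, medians of ratios and trimmed means of M-values lost 1 each. Calls that held are not counted, because tbc1d13.1, dennd2a.L and rab3d.L could only be called lower. With 2 libraries per group, a member that did not pass is not shown to be unchanged.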

Other observations

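Several members too low for the test had their reads in the deeper control library alone or nearly so: rab3d.1 (33 of its 33 reads), dennd2a.S (15 of 15), rab25.S (18, with 1 read elsewhere) and rab15.S (21, with 2 reads elsewhere). In 5 members every read came from that library. Entries at 0 in all 4 libraries were those of rab6a, rab37 and rab38 (both homeologs), rab7b.S, rab9b.S, rab39b.L and rab44.S.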
